A study of Mus musculus with 6 samples.

Results

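Collagens are the main structural proteins of the extracellular matrix, and their alpha chains wind around each other into rope-like helices. Fibrillar collagens form the tensile fibrils of connective tissue, type IV forms the mesh of basement membranes, type VI forms beaded filaments around cells, and fibril-associated collagens sit on the surface of fibrils. In peripheral nerve and sensory ganglia, collagen is known to come mainly from fibroblasts, Schwann cells, satellite glia and vessel walls rather than from neurons. The 43 mouse genes described here were taken from the 54532 rows of the expression table. Their symbol is Col, a number, a and a number, and Col10a1, which also fits, was left out. The 43 genes comprise 11 fibrillar genes, 6 of type IV, 6 of type VI, 9 fibril-associated genes, 2 multiplexins, 4 membrane-spanning genes, 2 of type VIII, and Col7a1, Col26a1 and Col28a1.

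Bulk RNA-seq was made from dorsal root ganglia of C57BL/6 mice at 8 weeks. These ganglia hold the cell bodies of sensory neurons with their glia, vessels and connective tissue. The 3 Hdac2 cKO libraries came from mice with Cre recombinase under the Advillin promoter (Adv-Cre+), which is active mainly in primary sensory neurons, and floxed alleles of the histone deacetylase gene Hdac2 (hdac2-flop++). The 3 WT libraries came from littermates without Cre that carry the same floxed genotype, so both groups hold floxed Hdac2 and no group holds Cre alone. The study asked whether HDAC2 in sensory neurons restrains genes linked to chronic pain. In bulk tissue, fewer cells of a type and less RNA per cell cannot be told apart, and the cells in which Cre is active are not those known to make most collagen.

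Levels are given as normalised read counts, that is, reads per gene after scaling by the size factor of the library. Log2 fold changes were taken on log2 (value + 1), with positive values meaning higher in Hdac2 cKO. Reads assigned to genes ranged from 27787407 to 42070531 in Hdac2 cKO libraries and from 18943595 to 31338593 in WT libraries. Hdac2 itself averaged 469 ± 85.9 in Hdac2 cKO and 2676 ± 899 in WT (SD, n = 3 each), without overlap. Limma did not call it (log2 fold change -2.47, adjusted p = 0.927), while DESeq2 did (adjusted p = 6.16e-09), so limma's lack of calls below comes from a test that also missed the deleted gene. WT 3 and Hdac2 cKO 3 stood apart from the other libraries, Y-linked genes were read in Hdac2 cKO 2, WT 2 and WT 3 but at most at trace level in the others, and WT 2 lacked an excess of even read counts that the other libraries had. The neuronal markers Avil, Prph and Snap25 were above 0 in all 6 libraries. Limma, fitted across the 18410 genes that reached 10 in 3 or more libraries, called 0 genes at an adjusted p of 0.05 (0% of genes), with 341 genes at an unadjusted p under 0.05. On the recovered reads edgeR called 0 genes (390 at an unadjusted p under 0.05) and DESeq2 26 (0.145%, with 995 at an unadjusted p under 0.05). Without both libraries numbered 3, limma called 5 genes (0.0272%), none of them a collagen gene.

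Collagen genes were on balance lower in Hdac2 cKO ganglia, and the genes of type I collagen, with Col5a1 and Col26a1, were lower in every knockout library. These are 4 of the 41 tested, against 3.91% of all genes tested, and for Col5a1 the nearest values differed little. Of the 41 collagen genes that passed the filter, 33 had a log2 fold change below 0, against 44.7% of all genes tested. Their median log2 fold change was -0.42, against 0.06 over all genes tested. None of the 41 passed limma's test over all genes, and 4 had a 95% interval that lay below 0 while 37 had one that held 0. At an unadjusted p under 0.05, these 4 were lower, against 0.978% of all genes, and 0 were higher, against 0.875%. The direction was not equally clear in every pair of libraries. Between libraries of the same number, 23, 30 and 33 of the 41 were lower in Hdac2 cKO for numbers 1, 2 and 3, with median log2 differences of -0.04, -0.38 and -1.14. In all 3 pairs, 16 of 41 were lower in Hdac2 cKO, against 14.6% of all genes tested, and 2 were higher. No label states that the numbers pair the libraries. The pairing is uncertain, and the main fit does not use it. Without both libraries numbered 3 the median was -0.23, with 29 of 41 lower against 49.5% of all genes. Without WT 3 alone it was -0.25, with 27 of 41 lower against 51.4% of all genes. Col9a1, a cartilage fibril-associated chain, and Col17a1, a hemidesmosome collagen, did not pass the filter and reached at most 11.8 in Hdac2 cKO and 63.4 in WT.

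**Figure D1:**
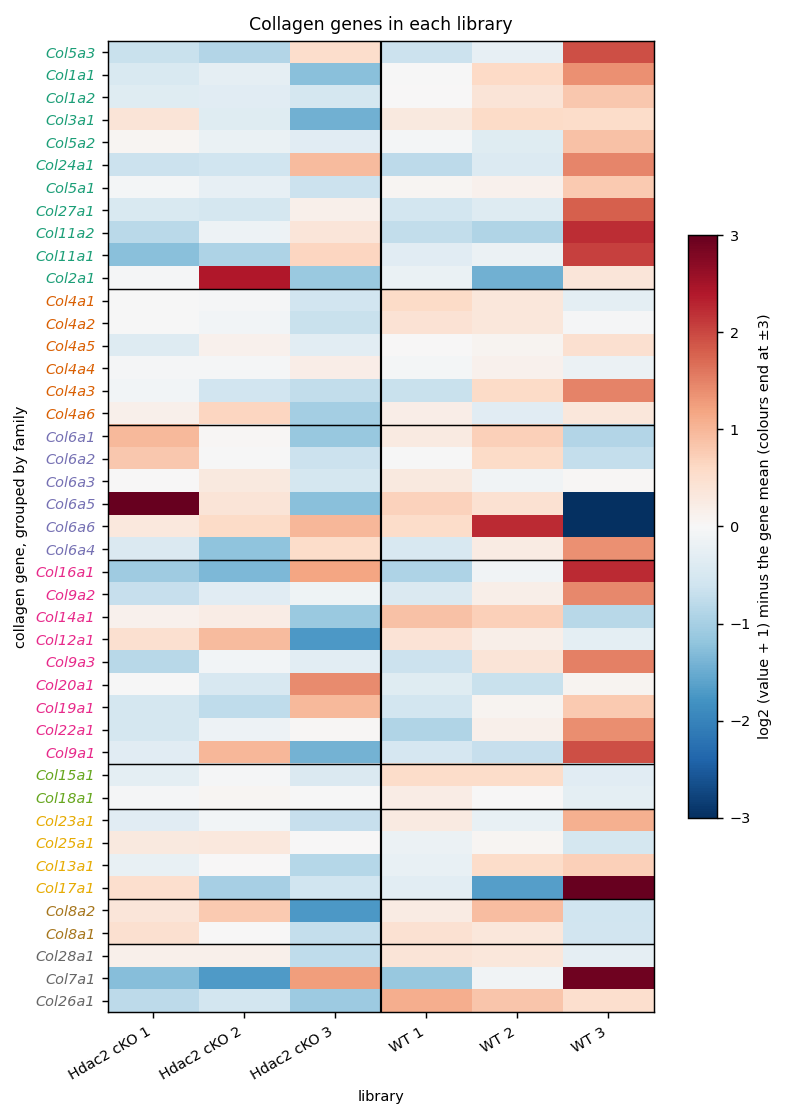
Each row is 1 of the 43 collagen genes, grouped by family and coloured by family on its label, and each column a library. Colour gives log2 (value + 1) minus the mean of the gene over the 6 libraries. WT 3 is the highest library for 21 genes, among them 9 of the 11 fibrillar ones, and Hdac2 cKO 3 the lowest for 20.

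The summed level of all 43 genes was 40330, 37479 and 38646 normalised read counts in Hdac2 cKO 1, 2 and 3, against 45854, 52007 and 90423 in WT 1, 2 and 3. Collagen genes held 0.144, 0.134 and 0.131% of reads in the Hdac2 cKO libraries and 0.166, 0.184 and 0.304% in the WT libraries. The groups did not overlap on either sum, and WT 3 was far above the other libraries. The fibrillar genes alone summed to 19527, 18118 and 20743 in Hdac2 cKO and to 21966, 27461 and 58866 in WT, so WT 3 owed most of its excess to them.

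Between genes, levels were compared as normalised read counts per kilobase of annotated exon, averaged over the 6 libraries. They spanned 557-fold. Col5a3, a minor fibrillar chain of type V collagen known from Schwann cells and muscle, led with 865 per kilobase. Col16a1, a fibril-associated chain, followed with 606, Col1a1 and Col1a2, the chains of type I collagen, with 602 each, and Col28a1, a collagen known from peripheral nerve and glia at nodes of Ranvier, with 489.6. These first 5 cannot be put in a firm order, since Col5a3 and Col16a1 varied several-fold between libraries. Col16a1 owed its place to the libraries numbered 3, and ranked 7 to 13 among the 43 genes in each of the other 4. Col4a1 led the type IV genes at 385, Col23a1 the membrane-spanning genes at 340.1, Col6a1 the type VI genes at 239, Col15a1 the multiplexins at 191 and Col8a2 the type VIII genes at 68.1. In all, 19 genes lay above 100 per kilobase. Col2a1, the main cartilage collagen, stood at 10.6, and the lowest level was that of Col9a1 at 1.55.

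The promoter windows shown here are those of genes the results turn on: Col1a2, which separated the genotypes, the head-to-head pair Col4a1 and Col4a2, whose levels kept an almost constant ratio, and Col5a3 and Col16a1, the highest genes per length when averaged over all 6 libraries. Each runs from 250 bases before to 50 bases after a RefSeq start site on GRCm38.p6, the assembly of mm10, 5′ to 3′ on the gene's strand. Capitals mark 3 motifs on either strand: GGGCGG (on the other strand CCGCCC), known as a GC box; CCAAT (on the other strand ATTGG), the CCAAT box; and TATAAA (on the other strand TTTATA), the TATA box. No capitals overlap each other here. The windows lie at chr6:4505368-4505667 (plus strand) for Col1a2, chr8:11312777-11313076 (minus) for Col4a1, chr8:11312555-11312854 (plus) for Col4a2, chr9:20815018-20815317 (minus) for Col5a3 and chr4:130047590-130047889 (plus) for Col16a1.
Col1a2: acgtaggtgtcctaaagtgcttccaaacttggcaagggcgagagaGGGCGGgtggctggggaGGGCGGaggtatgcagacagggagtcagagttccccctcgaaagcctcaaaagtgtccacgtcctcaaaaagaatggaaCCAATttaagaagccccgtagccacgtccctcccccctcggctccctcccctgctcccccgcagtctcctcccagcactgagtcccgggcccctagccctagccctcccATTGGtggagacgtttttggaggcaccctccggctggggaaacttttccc
Col4a1: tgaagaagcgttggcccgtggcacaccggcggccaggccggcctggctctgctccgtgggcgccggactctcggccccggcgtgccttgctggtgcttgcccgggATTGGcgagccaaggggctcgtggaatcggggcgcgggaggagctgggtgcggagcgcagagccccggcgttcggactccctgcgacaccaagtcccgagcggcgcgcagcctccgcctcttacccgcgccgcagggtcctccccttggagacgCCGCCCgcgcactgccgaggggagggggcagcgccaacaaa
Col4a2: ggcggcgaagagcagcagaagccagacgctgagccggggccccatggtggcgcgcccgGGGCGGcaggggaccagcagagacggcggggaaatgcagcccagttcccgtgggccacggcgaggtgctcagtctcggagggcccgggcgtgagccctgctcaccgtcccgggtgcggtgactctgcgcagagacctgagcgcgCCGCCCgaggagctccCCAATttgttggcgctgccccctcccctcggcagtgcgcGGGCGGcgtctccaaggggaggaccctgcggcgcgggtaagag
Col5a3: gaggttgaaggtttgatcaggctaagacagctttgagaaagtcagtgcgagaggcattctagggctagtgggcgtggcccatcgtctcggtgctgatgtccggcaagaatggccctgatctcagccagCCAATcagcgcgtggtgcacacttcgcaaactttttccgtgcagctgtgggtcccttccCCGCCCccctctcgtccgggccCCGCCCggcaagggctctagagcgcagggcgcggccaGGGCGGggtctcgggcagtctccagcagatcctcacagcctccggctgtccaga
Col16a1: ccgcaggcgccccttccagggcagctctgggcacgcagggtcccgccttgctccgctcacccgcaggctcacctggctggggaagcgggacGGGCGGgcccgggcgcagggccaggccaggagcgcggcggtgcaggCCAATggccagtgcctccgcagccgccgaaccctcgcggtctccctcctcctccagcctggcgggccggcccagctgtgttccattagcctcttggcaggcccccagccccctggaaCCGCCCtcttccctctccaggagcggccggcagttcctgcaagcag
None of these 5 holds TATAAA. RefSeq windows matched 34 of the 43 genes, with 37 windows in all. GGGCGG was found in 62.2% of these, against 35.7% of the 32851 windows of all genes. CCAAT was found in 35.1% against 37.4%, and TATAAA in 10.8% against 13.6%. The windows of Col4a1 and Col4a2 share 78 bases, chr8:11312777-11312854, read on opposite strands. A match describes letters and is not evidence of binding. Over whole transcripts, the median GC content was 55.2% for the 41 collagen genes tested and 49.4% for all genes.

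Among the fibrillar genes, 10 of 11 had a log2 fold change below 0, with a median of -0.64. Without WT 3 the median was 0.04, with 5 of 11 below 0, and without both libraries numbered 3 it was -0.26, with 8 of 11 below 0. Col1a1 (ENSMUSG00000001506, mm10 chromosome 11, 94936224 to 94953042, plus strand), the alpha 1 chain of the type I fibrils of tendon, bone and nerve sheath, stood at 2441, 2776 and 1413 in Hdac2 cKO 1, 2 and 3, against 3319, 5098 and 8666 in WT 1, 2 and 3. All knockout libraries lay below all WT libraries, with the widest gap between the libraries numbered 3. Limma gave a log2 fold change of -1.31 (SE 0.41) with an adjusted p of 0.927. Over the 41 collagen genes limma's adjusted p ranged from 0.927 to 0.987. The value was -0.95 without WT 3 and -0.66 without both libraries numbered 3. DESeq2 with the replicate number as a block called Col1a1 lower (adjusted p = 0.0488), against 0.405 without the block, and called 0.164% of genes lower. Col1a2 (ENSMUSG00000029661, mm10 chromosome 6, 4504814 to 4541544, plus strand), the alpha 2 chain, stood at 5523, 5594 and 4891 in Hdac2 cKO, against 7162, 9239 and 12441 in WT. The knockout libraries lay close together and the WT libraries were spread widely above them. Its log2 fold change was -0.82 (SE 0.24), and -0.55 without both libraries numbered 3.

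Col5a1, a type V chain that limits the width of type I fibrils, stood at 1196, 1057 and 801 in Hdac2 cKO, against 1306, 1379 and 2150.5 in WT. These groups did not overlap either, but their nearest values differed little. The log2 fold change was -0.64 (SE 0.27), and was -0.42 without WT 3 and -0.26 without both libraries numbered 3. Over the collagen genes, 4 of 41 lay lower in every Hdac2 cKO library, against 3.91% of all genes tested, and 0 lay higher in every one, against 4.63%. The fourth was Col26a1, described below, and an exact permutation test (two-sided) put each of the 4 at p = 0.1, the smallest that 3 against 3 allows. Col3a1, which forms mixed fibrils with type I, stood at 3565, 2127 and 995 in Hdac2 cKO, against 3317, 4049 and 3965 in WT. Only Hdac2 cKO 1 reached into the WT range, and the log2 fold change was -0.94 (SE 0.44), ranging from -1.37 to -0.45 when 1 library was left out.

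**Figure D2:**
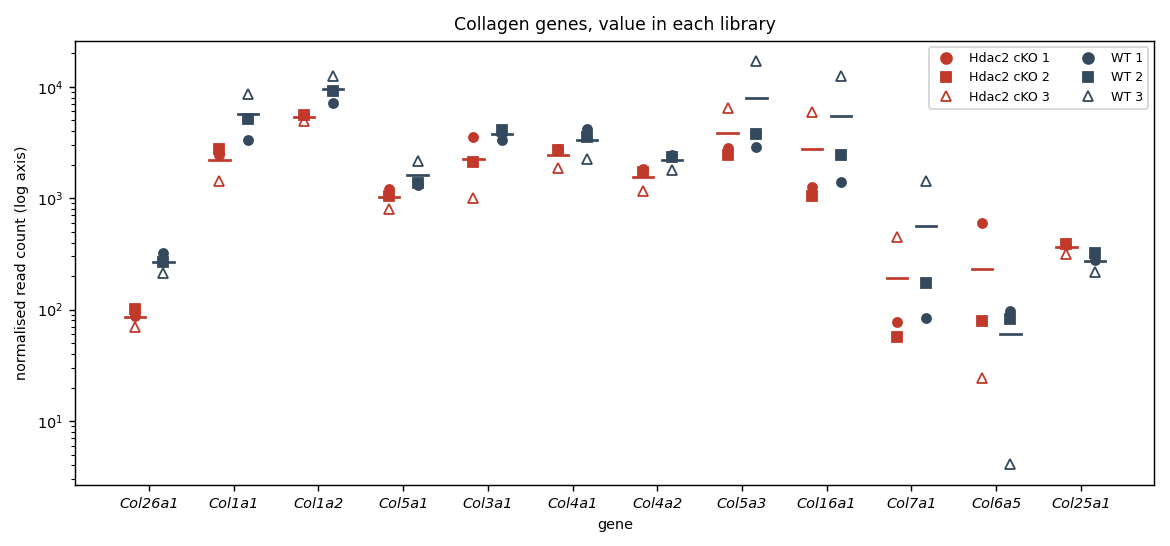
Normalised read counts (log axis) of 12 collagen genes, with Hdac2 cKO left in red and WT right in dark blue. Each point is a library, open triangles are the libraries numbered 3, and a bar is the mean of 3. Col26a1, Col1a1, Col1a2 and Col5a1 do not overlap between groups, while Col5a3, Col16a1 and Col7a1 separate the libraries numbered 3 from the others in both groups.

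Col5a3 stood at 2797, 2426 and 6414 in Hdac2 cKO, against 2863, 3788 and 17045 in WT. Here the libraries numbered 3 were the highest of each group. Among the others, both knockout values lay below both WT values, though the nearest, 2797 and 2863, differed little. The log2 fold change was -0.70 (SE 0.69), turned to 0.09 without WT 3, and was -0.34 without both libraries numbered 3. Col24a1, at 639, 662 and 1949 against 583, 759 and 2764, and Col27a1, at 844, 811 and 1288 against 792, 884 and 4000.4, are minor fibrillar collagens. Both were also highest in the libraries numbered 3, and their other libraries overlapped. Their log2 fold changes turned to 0.49 and 0.20 without WT 3, and were -0.03 and -0.02 without both libraries numbered 3. Col11a1 and Col11a2, the chains of a fibrillar collagen known from cartilage, were highest in WT 3 too. Col11a1 stood at 262, 326 and 981 in Hdac2 cKO and at 493, 549 and 2563 in WT, and Col11a2 reached at most 455 in Hdac2 cKO and 1637 in WT, both in the library numbered 3. Col5a2 stood at 2000.5, 1685 and 1528 in Hdac2 cKO and at 1865, 1505 and 3553 in WT, and did not separate the groups. Col2a1 stood at 61.6, 338 and 28.7 in Hdac2 cKO, against 54.7, 22.3 and 80.7 in WT. Its high value came from Hdac2 cKO 2 alone, and its log2 fold change of 0.86 (SE 0.94) turned to -0.14 without that library.

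**Figure D3:**
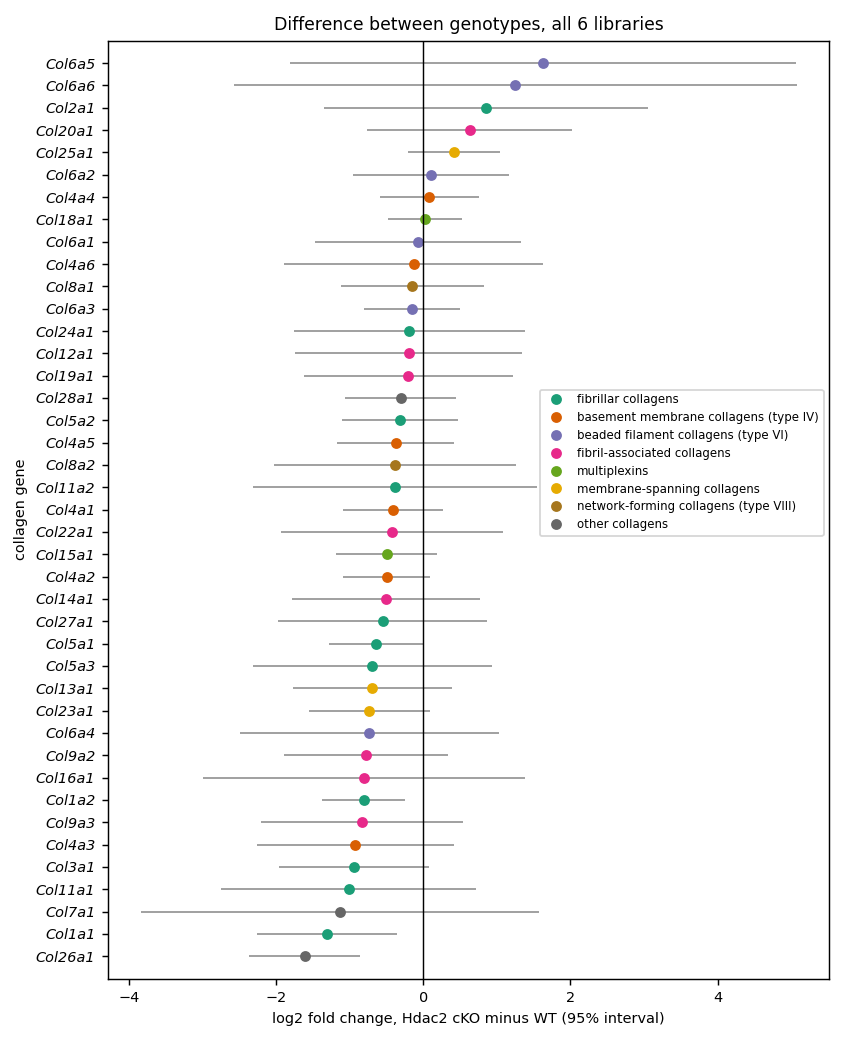
Log2 fold change of the 41 collagen genes tested (points, coloured by family) with 95% intervals from limma, ordered by size. Of these points 33 lie left of 0, and 37 intervals hold 0. Col6a6 rests on a listed value of 0 in WT 3.

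Of the 6 type IV genes, 5 had a log2 fold change below 0, with a median of -0.40. These genes lie in head-to-head pairs. Col4a1 and Col4a2 (mm10 chromosome 8, 11198423 to 11312826 on the minus strand and 11312805 to 11449287 on the plus strand) overlap by 22 annotated bases at their starts, and with the strand setting unknown they may share reads there. Their products form the standard chains of all basement membranes. Col4a1 stood at 2737, 2722 and 1861 in Hdac2 cKO, against 4143, 3508 and 2266 in WT, and Col4a2 at 1819, 1714 and 1149 against 2459, 2321 and 1785. Both were lower in the knockout library of each number and lowest in the libraries numbered 3, and on both genes the groups overlapped through WT 3. The log2 fold changes were -0.42 (95% interval -1.10 to 0.26) for Col4a1 and -0.50 (-1.10 to 0.09) for Col4a2, and without Hdac2 cKO 3 they were -0.23 and -0.30. Without WT 3 they were -0.67 and -0.64.

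Col4a3 and Col4a4, chains known from the kidney glomerulus, start 72 bases apart on chromosome 1. Col4a4 stood at 148, 148 and 174 in Hdac2 cKO, against 146, 165 and 135 in WT, a narrow range with a log2 fold change of 0.08 (95% interval -0.60 to 0.75). Col4a3 ranged more widely, at 114, 80.6 and 71.3 in Hdac2 cKO, against 75.0, 179 and 340.4 in WT, with a log2 fold change of -0.93 (SE 0.57), which was -0.41 without WT 3 and -0.27 without both libraries numbered 3. Col4a5 and Col4a6 start 1309 bases apart on chromosome X. Col4a5 stood at 86.9, 126 and 91.6 against 116, 121 and 158, and Col4a6 at 17.2, 24.6 and 6.99 against 17.6, 11.9 and 19.4. The groups overlapped on both, and Col4a6 was near the limit of the filter.

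Ratios between chains were formed per length within each library, which removes the library's scale. The ratio of Col4a1 to Col4a2 was 1.33, 1.41 and 1.44 in Hdac2 cKO and 1.49, 1.34 and 1.13 in WT, and its highest value was 1.33 times its lowest. By the same measure Col9a3 to Col9a2 varied 1.39-fold and Col6a1 to Col6a2 1.72-fold. The ratio of Col4a3 to Col4a4 varied 6.16-fold, at 0.824, 0.578 and 0.436 in Hdac2 cKO and 0.548, 1.15 and 2.69 in WT. Head-to-head placement went with the tightest ratio in one type IV pair and the widest in another. The ratio of Col1a1 to Col1a2 was 0.837, 0.939 and 0.547 in Hdac2 cKO and 0.878, 1.04 and 1.32 in WT. For Col5a3 to Col5a1 it was 2.92, 2.86 and 9.99 in Hdac2 cKO and 2.73, 3.43 and 9.88 in WT, nearly the same in both genotypes at each number. None of the 12 ratios separated the genotypes (smallest exact two-sided permutation p = 0.2, Benjamini-Hochberg adjusted p = 0.8).

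**Figure D4:**
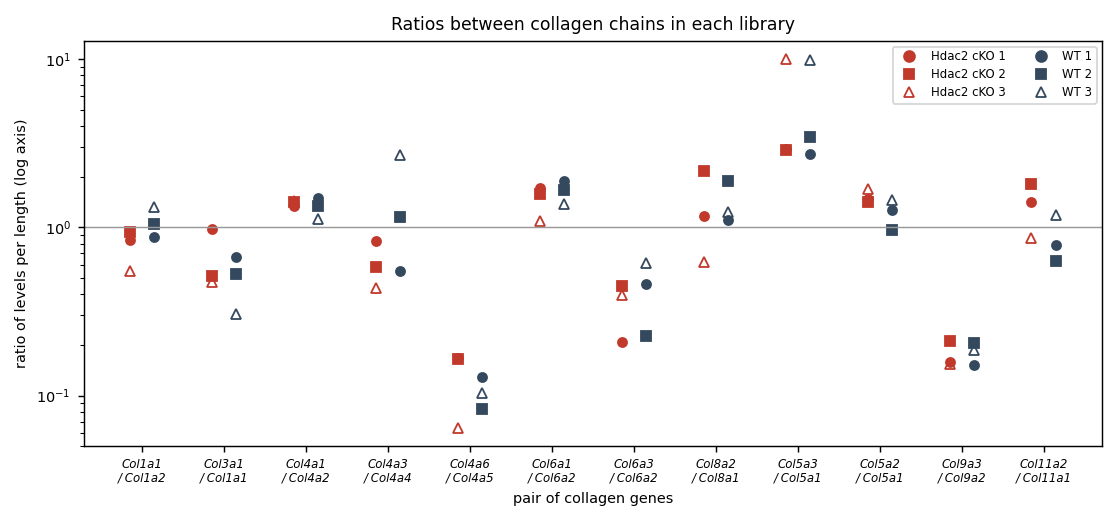
Ratio of levels per length between 12 pairs of collagen genes (log axis), with Hdac2 cKO left in red and WT right in dark blue. Each point is a library and open triangles are the libraries numbered 3. All 12 ratios overlap between genotypes, and Col5a3 to Col5a1 is near 10 in both libraries numbered 3.

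Type VI genes were evenly split, 3 of 6 above 0, and the median of their log2 fold changes was 0.01. Without WT 3 it was -0.23, with 5 of 6 below 0, and without both libraries numbered 3 it was 0.03, with 2 of 6 below 0. Col6a1 stood at 1805, 944 and 420.3 in Hdac2 cKO, against 1114, 1505 and 502 in WT, and Col6a2 at 1993, 1141 and 729 against 1125, 1706 and 694. Both were lowest in the library numbered 3 of each genotype and overlapped fully. The log2 fold changes were -0.08 (95% interval -1.48 to 1.32) for Col6a1 and 0.11 (-0.96 to 1.17) for Col6a2. The sign for Col6a1 turned with the scaling and without single libraries. Col6a3, the large chain that joins them, stood at 600.1, 738 and 415 in Hdac2 cKO and at 740.3, 555 and 615 in WT. Col6a4, Col6a5 and Col6a6, which lie next to each other on chromosome 9, were far lower. Col6a5, known from skin and linked in humans to itch, stood at 596, 78.6 and 24.5 in Hdac2 cKO, against 97.1, 81.9 and 4.09 in WT. Its mean was higher in Hdac2 cKO through Hdac2 cKO 1 alone, and its log2 fold change of 1.62 (SE 1.47) fell to 0.24 without WT 3. Col6a6 was listed at 0 in WT 3 and at 118 in WT 2, against 30.3 to 49.7 in Hdac2 cKO. Its mean was lower in Hdac2 cKO (38.8 against 51.3), yet its log2 fold change was 1.25 (SE 1.63), and -0.77 without WT 3.

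Fibril-associated genes had 7 of 8 tested members below 0, with a median log2 fold change of -0.47. This median was -0.07 without WT 3, with 4 of 8 below 0. Without both libraries numbered 3 it was -0.36, with 5 of 8 below 0. Col16a1 stood at 1265, 1037 and 5973 in Hdac2 cKO, against 1383, 2451 and 12453 in WT. Both libraries numbered 3 were several-fold above the rest. The log2 fold change of -0.81 (SE 0.93) turned to 0.11 without WT 3 and was -0.68 without both libraries numbered 3. Col12a1 and Col14a1, which bind type I fibrils in dense connective tissue, were low rather than high in the libraries numbered 3. Their log2 fold changes were also below 0, at -0.20 and -0.51. Col12a1 stood at 832, 1165 and 181 in Hdac2 cKO and at 800.3, 683 and 488 in WT, and Col14a1 at 865, 919.9 and 362 against 1457, 1285 and 445. Both were lowest in the libraries numbered 3. Col20a1 stood at 54.6, 39.3 and 149 in Hdac2 cKO, against 42.4, 34.2 and 58.3 in WT, with a log2 fold change of 0.63 (SE 0.59). Its high value was that of Hdac2 cKO 3 alone, without which the log2 fold change was 0.08. Col9a2 and Col9a3, chains of cartilage collagen IX, were highest in WT 3. Col9a2 stood at 249.6, 317 and 370.0 in Hdac2 cKO and at 298, 457 and 1102 in WT, and Col9a3 at 49.5, 83.5 and 70.6 against 56.5, 116 and 254. Col19a1 and Col22a1 reached at most 137 and 49.7 in Hdac2 cKO and 119 and 128 in WT.

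Of the multiplexins, whose cleaved ends include endostatin, Col15a1 stood at 952, 1136 and 867 in Hdac2 cKO, against 1702, 1699 and 919 in WT. The knockout library was the lower one at each number, by little at number 3, and the log2 fold change was -0.50 (SE 0.29), which was -0.80 without WT 3. Col18a1 varied little, at 1044, 1116 and 1058 against 1249, 1081 and 872, and the 95% interval of its log2 fold change was -0.48 to 0.52. Among the membrane-spanning genes, Col23a1 stood at 1425, 1709 and 1113 in Hdac2 cKO, against 2154, 1544 and 3760.2 in WT, with a log2 fold change of -0.73 (SE 0.35). The value was -0.39 without WT 3, -0.22 without both libraries numbered 3 and -0.08 with array weights. Col25a1, a neuronal collagen needed for motor innervation of muscle in mice, stood at 384, 385 and 315 against 276, 325 and 217. It was higher in the knockout library of every number, although the groups overlapped, and its log2 fold change was 0.42 (95% interval -0.21 to 1.05), or 0.27 without WT 3. Col13a1, found at neuromuscular synapses, stood at 55.6, 65.9 and 35.7 in Hdac2 cKO, against 55.6, 95.3 and 107 in WT. The type VIII genes, known from vessel walls and the cornea, had log2 fold changes of -0.15 for Col8a1 and -0.38 for Col8a2. Col8a2 stood at 336, 447 and 77.6 in Hdac2 cKO and at 309, 491 and 172 in WT.

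Col26a1 (ENSMUSG00000004415, mm10 chromosome 5, 136741759 to 136883209, minus strand) had the smallest p of the collagen genes. It encodes a short collagen with an EMI domain, first described in testis and ovary. It stood at 86.9, 102 and 69.9 in Hdac2 cKO, against 321, 267 and 215 in WT. All knockout libraries lay far below all WT libraries, and the libraries numbered 3 kept the same gap as the others. The means were 86.3 ± 16.1 in Hdac2 cKO and 267 ± 53.3 in WT (SD, n = 3 each), a ratio of 0.323. Its log2 fold change was -1.62 (SE 0.32, 95% interval -2.37 to -0.86, limma adjusted p = 0.927) and ranged from -1.77 to -1.48 when each library was left out. DESeq2 called it lower over all genes (adjusted p = 0.00361), where it called 0.123% of genes lower, and 1 of the 43 collagen genes. With the replicate block DESeq2 did not call it (adjusted p = 0.124). Limma with array weights called Col26a1 (adjusted p = 0.0118), Col1a2 (0.025), Col1a1 (0.0362) and Col15a1 (0.0376) lower, where it called 1.39% of all genes lower. Those weights rest the WT mean mostly on WT 2, with a weight of 4.17 against 0.67 for WT 1 and 0.101 for WT 3.

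Col28a1, at 2563, 2558 and 1376 in Hdac2 cKO against 3042, 2953 and 1915 in WT, was below its same-numbered WT library in each knockout library, with a log2 fold change of -0.31 (SE 0.32) that was -0.012 without Hdac2 cKO 3 and -0.53 without WT 3. The groups overlapped through WT 3. Among myelinating Schwann cell markers 9 of 9 had a log2 fold change below 0, with a median of -0.82, and their sum ranged from 130439 to 218691 in Hdac2 cKO and from 235964 to 353885 in WT. Their part in the collagen values was not tested. Col7a1, the anchoring fibril collagen of skin, stood at 76.8, 57.0 and 445 in Hdac2 cKO, against 84.7, 174 and 1417 in WT, again highest in the libraries numbered 3. Its log2 fold change was -1.13 (SE 1.16), 0.04 without WT 3 and -0.87 without both libraries numbered 3.

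The libraries numbered 3 lay apart from the others in both genotypes, in collagen genes about as often as in all genes tested. In 10 of 41 genes both of these libraries lay above the other 4, against 18.2% of all genes tested, and in 10 both lay below, against 22.3%. Both counts are close to the background. The genes above were Col5a3, Col11a1, Col11a2, Col24a1, Col27a1, Col16a1, Col19a1, Col20a1, Col6a4 and Col7a1. Those below were Col4a1, Col6a1, Col6a2, Col6a5, Col8a1, Col8a2, Col12a1, Col14a1, Col15a1 and Col28a1. As a sum, fibroblast markers were low in the same libraries. They summed to 27811, 27608 and 14925 in Hdac2 cKO, against 28393, 27906 and 10913 in WT. Dcn was the largest member of each sum, at 16849, 15801 and 8269 in Hdac2 cKO, against 15270, 13708 and 4851 in WT. Not every marker was low there. Fbln2 stood at 2705, 3230 and 2963 in Hdac2 cKO 1, 2 and 3, and Clec3b at 160, 502 and 321 in WT 1, 2 and 3. Of the 12 markers, 8 had a log2 fold change below 0, and Dpt and Mfap4 were listed at 0 in WT 3. WT 3 thus joined the lowest fibroblast marker sum to the highest Col1a1 and Col1a2. It also had the highest sum of non-myelinating Schwann cell and satellite glia markers, 216793. Their part in the collagen values was not tested.

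**Figure D5:**
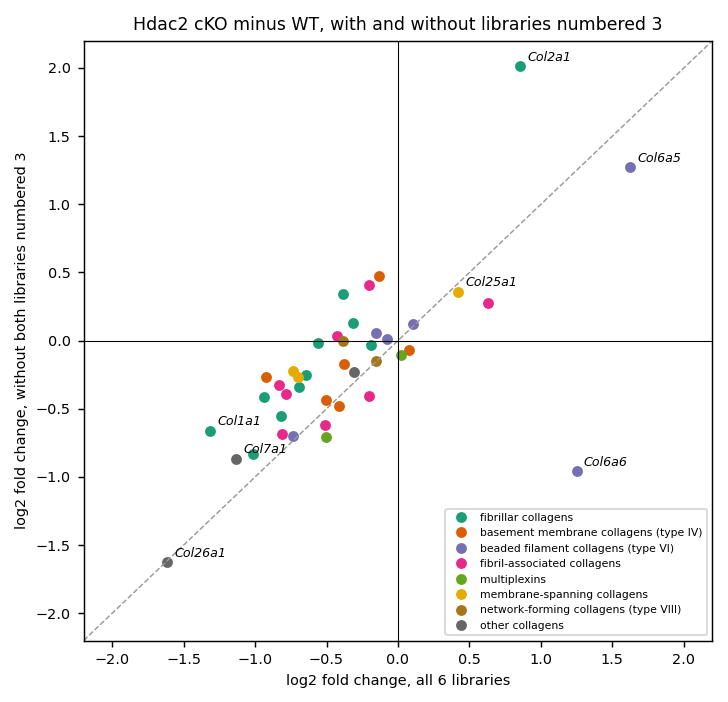
Log2 fold change of the 41 collagen genes tested, from all 6 libraries (horizontal) and without Hdac2 cKO 3 and WT 3 (vertical), coloured by family. The dashed line marks equal values. Col26a1 lies on the line, Col1a1 lies closer to 0 on the vertical axis, and 26 genes are below 0 on both axes.

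Genes that make, process, bind and degrade collagen were listed alongside. Limma called 0 members of any of these lists, as it did over all genes. Among 21 biosynthesis genes (prolyl and lysyl hydroxylases, chaperones and export factors), 12 were above and 9 below 0, and their median log2 fold change, 0.06, was that of all genes. P4ha2, a prolyl hydroxylase subunit, averaged 874 ± 354 in Hdac2 cKO and 627 ± 174 in WT, and Fkbp10, a collagen chaperone, 262 ± 30.1 and 335 ± 77.6 (SD, n = 3 each). Of 13 genes for procollagen processing and cross-linking, 12 were below 0, with a median of -0.24. Tll1, a procollagen C-proteinase, stood at 169.7, 149 and 114 in Hdac2 cKO, against 291, 235 and 352 in WT, without overlap (log2 fold change -1.01, SE 0.31, limma adjusted p = 0.927). Loxl2, a lysyl oxidase, averaged 122 ± 40.5 against 199 ± 52.7.

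Collagen receptors had 9 of 12 members above 0 and a median of 0.27, which was 0.05 without WT 3. Itgb1, the shared beta chain of collagen-binding integrins, averaged 10711 ± 692 in Hdac2 cKO and 8763 ± 2506 in WT, and Adgrg1, a receptor of type III collagen, 4430.4 ± 78.1 and 3817 ± 827 (SD, n = 3 each). Breakdown enzymes and their inhibitors had 7 of 13 above 0. In that list Mmp9, a gelatinase, averaged 379.6 ± 305 in Hdac2 cKO and 245 ± 355 in WT, and the inhibitor Timp1 averaged 92.2 ± 34.1 and 52.6 ± 7.13 (SD, n = 3 each). Proteoglycans and other fibril partners had 7 of 14 below 0. Sparc, a collagen chaperone of the matrix, stood at 28738, 32565 and 22498 in Hdac2 cKO, against 41610, 36729 and 35814 in WT, without overlap (log2 fold change -0.46, SE 0.21, limma adjusted p = 0.927). Podn averaged 151 ± 84.8 and 256 ± 67.7. Of 15 other basement membrane genes 9 were below 0, with a median of -0.13. Lamb1, a laminin chain, stood at 2767, 2420 and 2235 in Hdac2 cKO, against 4135, 3261 and 3959 in WT, without overlap (log2 fold change -0.61, SE 0.20, limma adjusted p = 0.927), and Nid2, a nidogen, averaged 487 ± 146 and 749 ± 177. Without WT 3 the medians were -0.07 for biosynthesis, -0.55 for processing and cross-linking, -0.26 for breakdown, -0.53 for fibril partners and -0.33 for basement membrane genes.

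Other marker lists gave the following medians beside the collagen values. Skeletal muscle markers were below 0 in 14 of 14, with a median of -3.41, 1 marker at 0 in Hdac2 cKO 3, and sums from 403 to 1563 in Hdac2 cKO and from 3978 to 11690.4 in WT. Ttn averaged 79.8 ± 32.3 and 661 ± 293, and Tcap 29.0 ± 29.0 and 325 ± 117 (SD, n = 3 each). Mural cell markers had a median of -0.27 (Tagln 20.5 ± 2.90 and 63.6 ± 32.5, Cspg4 507 ± 74.9 and 629.7 ± 154), and endothelial markers of -0.33 (Emcn 288 ± 67.3 and 401 ± 61.3, Tie1 494 ± 22.2 and 736 ± 298). Fibroblast markers had one of -0.13 (Fbln2 2966 ± 262 and 3490.0 ± 843, Clec3b 216 ± 160.4 and 327 ± 171), perineurial and barrier fibroblast markers of 0.001 (Moxd1 1495 ± 162 and 1126 ± 434, Ntn4 496 ± 143 and 399.9 ± 107). The 10 perineurial and barrier markers were split, 5 above 0 and 5 below, among the latter Slc47a1 with a log2 fold change of -0.89. Myelinating Schwann cells were represented by Mag at 831 ± 78.9 and 1466 ± 78.3 and by Pmp22 at 47496 ± 9431 and 88116 ± 18410. Tendon markers had a median of -0.40 (Comp 386 ± 157 and 755 ± 412, Mkx 419.9 ± 87.4 and 282 ± 59.0). For cartilage and bone markers it was 0.25 (Acan 49.7 ± 39.0 and 18.1 ± 13.2, Hapln1 713 ± 125 and 510.2 ± 205). Of the 9 cartilage and bone markers tested 6 were above 0 and 3 below, and without both libraries numbered 3 the median was -0.41. Non-myelinating Schwann and satellite glia markers had 0.30 (Scn7a 13930 ± 611 and 10260 ± 4270, L1cam 12843 ± 2290 and 9125 ± 3971). Of these 10 markers 6 were above 0 and 4 below. Their sum ranged from 88020.5 to 108207 in Hdac2 cKO and was 85928, 90557 and 216793 in WT 1, 2 and 3. Neuronal markers had -0.11 (Avil 9231 ± 969 and 14943 ± 2655, Isl1 3128 ± 852 and 2367 ± 61.5). Avil is the Advillin gene, whose promoter drives Cre in the Hdac2 cKO group only. Whether this bears on its level was not tested. Each pair of values is Hdac2 cKO and then WT. Without WT 3 the median was -0.57 for fibroblast, -0.28 for perineurial, -0.21 for cartilage and bone, 0.04 for neuronal, 0.05 for non-myelinating Schwann and satellite glia, -0.69 for tendon, -0.19 for endothelial and -0.43 for mural markers. Their part in the collagen differences was not tested.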

How the data were processed

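Bulk RNA-seq of dorsal root ganglia was deposited as 1 table with 6 library columns, matched to samples by name. The submitters' processing notes name mm10, HISAT2, SAMtools, featureCounts and DESeq2. Versions, the annotation, the strand setting and any pooling of animals were not given in the sources used here. The deposited signal values are reads per gene scaled by a size factor. In each library 100% of values were whole multiples (tolerance 0.01 reads) of the value of 1 read, so the reads could be recovered, and size factors recomputed from them with DESeq2 equalled the deposited ones. With the strand setting unknown, overlapping genes may share reads. Exons of 12 of the 43 genes overlap another annotated gene. Symbols (for 54409 of 54532 identifiers), coordinates and exon lengths came from GENCODE M21 on GRCm38, which is mm10. Promoter windows came from RefSeq.

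The main test was limma 3.58.1 (R 4.3.3, trend and robust options) on log2 (value + 1), run on genes that reached 10 in 3 or more libraries. Tests were two-sided, with Benjamini-Hochberg adjustment over all genes tested and a threshold of 0.05. Groups came from sample titles, with 3 libraries each. The labels do not say whether a library came from 1 mouse or a pool. Y-linked reads differ between libraries of each group, so these are not all repeats of 1 RNA sample. Alternatives were edgeR 4.0.16 with TMM scaling and DESeq2 1.42.0 on recovered reads, TMM scaling in limma, other pseudocounts and filters, the replicate block, array weights, a term for Y-linked reads, and leaving libraries out. Limma and edgeR were run on simulated data with known changes, while DESeq2, the array weights and the replicate block were not. The simulated libraries differed only by size, the known changes and random scatter. The check therefore does not show how the fits perform on libraries that stand apart as those numbered 3 do.

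Deviations from the group means correlated between same-numbered libraries by 0.40, 0.15 and 0.42 across genes for numbers 1, 2 and 3. By the rule that each exceed 0.1 the numbers were taken to pair the libraries. That rests on the data, since no label states it. WT 1 and Hdac2 cKO 2 also correlated by 0.34, so this pairing is uncertain. No replicates agreed within sampling noise (chi-square per gene at least 17.5).

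Members and lists were chosen with earlier results of these data known. Collagen genes given in full were the highest per length of each family, those called by limma, edgeR or DESeq2, the 4 smallest p-values of each direction, and the type IV genes; for each other list the 2 genes with the smallest p are given. Col3a1, Col7a1, Col24a1 and the other collagen genes outside this rule were chosen after their values were seen.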

Additional observations from a re-analysis of the deposited data

How the results depend on the processing

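Limma called 0 genes under the main setting and also with TMM scaling, pseudocounts of 0.5 and 5, no filter, a minimum of 50, the Y-linked term, the replicate block, and without each library in turn. It called 567 genes with array weights and 5 without both libraries numbered 3; DESeq2 called 26, and 59 with the replicate block. Collagen genes called numbered 4 with array weights, 1 with DESeq2 and 1 with DESeq2 and the block, and 0 otherwise. Of the 180 partner and marker genes tested, 14 were called with array weights (5 muscle and 4 myelinating Schwann cell markers), 5 with DESeq2 (4 and 1) and 9 with DESeq2 and the block (7 and 2). The median collagen log2 fold change of -0.42 stayed below 0 in every alternative run, between -0.51 with edgeR and -0.23 without both libraries numbered 3, and ranged from -0.48 to -0.25 when 1 library was left out.

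Of 377 values of the 21 named genes under alternatives, 17 turned sign. The limma replicate block and the other filters leave log2 fold changes as they are, so this share understates how far directions moved. Over all collagen genes tested, 20 changed sign among the fits that left out 1 library and 21 did not. Col6a1 was 0.0066 with edgeR, 0.022 with DESeq2 and 0.011 without both libraries numbered 3. Col4a4 was -0.11 with array weights and -0.068 without both libraries numbered 3. Col4a6 was 0.61 with array weights, 0.013 with the Y-linked term and 0.47 without both libraries numbered 3. Leaving out 1 library gave -1.19 to 0.095 for Col5a3, -1.60 to 0.11 for Col16a1, -0.58 to 0.47 for Col6a1, -0.87 to 0.39 for Col8a2, -0.14 to 1.62 for Col2a1, -0.0011 to 0.16 for Col4a4 and -0.50 to 0.34 for Col4a6. For Col26a1, Col1a1 and Col1a2 every alternative stayed below 0. The cause of these shifts was not tested. Low genes such as Col4a6 and Col9a1 are limited by depth.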
